A study of Mus musculus with 4 samples.

Results

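The matrilins Matn1, Matn2, Matn3 and Matn4, the link protein gene Hapln1 and Comp encode non-collagenous proteins of the cartilage matrix. These 6 genes were taken by name out of the 22238 protein-coding genes of the mouse annotation. For each gene, the promoter peak was the peak with the highest fold enrichment whose summit lay within 1 kb of the gene start, and the locus was the gene body with 50 kb on each side.

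ATAC-Seq, which maps open chromatin by the insertion of adapters by the Tn5 transposase, was performed in primary chondrocytes from mouse rib cartilage. Per the study methods, the cells came from newborn mice and were kept for few passages. There were 4 libraries: 2 replicates named Cho (Cho Rep1 and Cho Rep2 here, replicates 1 and 2 in the plots), whose labels carried no genotype, 1 WT library, and 1 library with the genotype label E160(delta/delta);E308(delta/delta), called Del here. E160 and E308 are elements upstream of Sox9, which encodes the master transcription factor of chondrocytes, and both were removed by CRISPR/Cas9 editing of fertilized oocytes, so the deletion was not limited to chondrocytes. The study describes the WT and deletion animals as littermates. The labels did not say how many animals each library pooled. With 1 library per genotype, WT and deletion values compare 2 libraries rather than genotypes, so p-values are not given. The loci held 52 of the 76242 peaks of Cho Rep1, 154 of 148330 in Cho Rep2, 79 of 90971 in WT and 130 of 169591 in Del.

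Matrilins are adaptor proteins built from von Willebrand factor A domains that join collagen fibrils to proteoglycans. Matn1 and Matn3 are made mostly by cartilage, whereas Matn2 and Matn4 are found in many connective tissues. Hapln1 locks the large proteoglycan aggrecan onto hyaluronan and so builds the aggregates that give cartilage its stiffness. Comp, a member of the thrombospondin family, binds collagens and other matrix proteins. Mutations of human MATN3 and COMP cause multiple epiphyseal dysplasia, a disorder of growth cartilage. Sox9 is known to act on several cartilage matrix genes through enhancers far from their promoters, and for this reason peaks around each gene were examined together with those at the promoter.

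The lists were not of equal depth. The background pileup, which is the number of fragments that cover a position by chance under the peak caller's model, was 1.37 in Cho Rep1, 1.96 in Cho Rep2, 0.361 in WT and 0.626 in Del. Fold enrichment is the summit pileup plus 1 over the local background plus 1, so it moves with depth and with the local background. At the promoters of Matn2, Matn3, Matn4 and Hapln1, the local background was 1.37 in Cho Rep1, the same as its library background. It was 5.15 to 18.3 in Cho Rep2 and 0.967 to 1.83 in WT. The smallest peak width was 200 bp in Cho Rep1 and 72 to 94 bp in the other lists. Fold enrichments of Cho Rep1 are thus not on the same footing as the others. The scaled pileup, which is the summit pileup over the background pileup of its library, is therefore given beside fold enrichment. The lists held peaks at E308 and E160 with fold enrichments of 15.4 and 13.4 in WT. In Del, no peak was listed at E160, and a peak of 4 fragments was listed at E308.

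Promoter peaks were also found at genes of more than 1 cell type. Peaks were present at 3, 7, 7 and 7 of 7 chondrocyte markers in Cho Rep1, Cho Rep2, WT and Del, and at 6 of 6 fibroblast and perichondrium markers in each library. Peaks at muscle markers numbered 0, 2, 1 and 2 of 4 in the same order, those at blood markers 0, 2, 1 and 2 of 4, and those at endothelium markers 2, 1, 2 and 2 of 3. An open promoter is no measure of transcription, and the part of other cell types in the signals below was not tested. In bulk cells, a site that is open in fewer cells and a site that is less open per cell cannot be told apart.

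Most of the 6 genes had an open promoter. A promoter peak was called at 4 genes in Cho Rep1, where 55.3% of all protein-coding genes had one, and at 5 genes in Cho Rep2 (64.8% of all genes), WT (59.0%) and Del (64.7%). Among so few genes, these counts are not far from the background shares. Matn2, Matn3, Matn4 and Hapln1 had a promoter peak in 4 of 4 libraries, Matn1 lacked one in Cho Rep1, and Comp had none in any library.

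**Figure D1:**
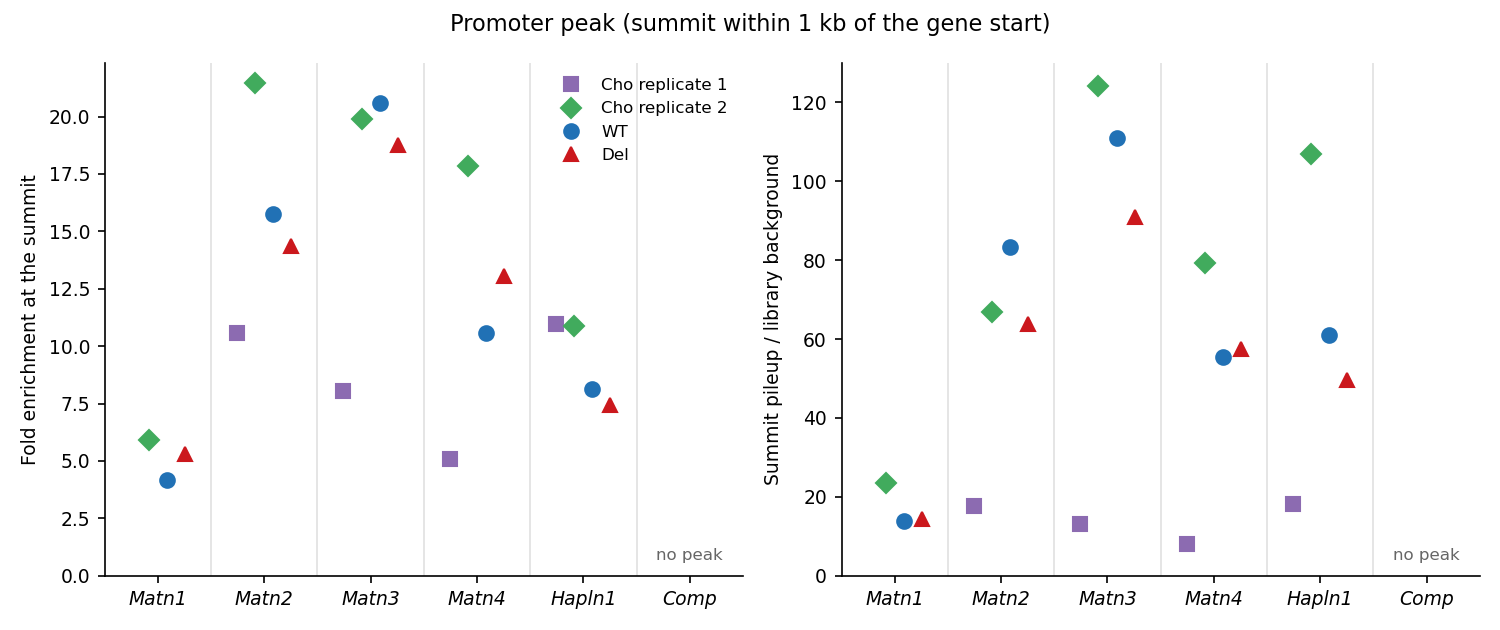
Promoter peak of each gene in the 4 libraries: fold enrichment at the summit on the left and summit pileup over the library background on the right, 1 point per library, with no point where no peak was called within 1 kb. Matn3 was the highest of the 6 genes in WT and in Del on both scales, Matn1 was the lowest of those with a peak, and Cho Rep1 lay far below the other libraries on the right. The median scaled pileup over all called promoters was also lowest in Cho Rep1, 20.5 against 67.5 in Cho Rep2, 80.4 in WT and 65.5 in Del.

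Matn3 encodes a matrilin made mostly by cartilage, and it had the strongest promoter peak of the group in WT. Its gene lies on chromosome 12 at chr12:8954735-8978834 (NCBIM37, plus strand). The promoter fold enrichment was 8.02 in Cho Rep1, 19.9 in Cho Rep2, 20.6 in WT and 18.8 in Del. The WT value exceeded that of 95.6% of all promoters called in that library, and the deletion value that of 90.5%. In Cho Rep1, the same promoter stood above only 27.8% of called promoters, so its rank was not shared by every library. The scaled pileups were 13.2, 124, 111 and 91.0 in the same order. The summits lay between 65 and 109 bp upstream of the gene start in 4 of 4 libraries. These distances fall within the 250 bases before the start, which are shown for this reason. The sequence is from RefSeq (GRCm38.p6, chr12:8947679-8947928, plus strand) and held no match to the motifs described further on, so it has no capitals.

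Matn3 promoter: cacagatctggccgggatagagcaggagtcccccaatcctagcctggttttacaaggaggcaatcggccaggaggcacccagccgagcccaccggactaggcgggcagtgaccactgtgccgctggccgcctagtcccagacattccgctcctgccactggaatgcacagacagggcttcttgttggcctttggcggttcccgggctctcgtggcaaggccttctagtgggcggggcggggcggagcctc

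Matn1, the first matrilin described in cartilage, contrasted with Matn3. Its gene lies at chr4:130500300-130511390 (NCBIM37, plus strand). No promoter peak was called in Cho Rep1, and the fold enrichment was 5.91 in Cho Rep2, 4.15 in WT and 5.30 in Del. The WT peak rested on a pileup of 5 fragments and exceeded only 1.08% of called promoters. The scaled pileups of 23.5, 13.9 and 14.4 were the lowest of the genes with a peak in each of these libraries. At a q-value under 1e-05, the promoter was no longer called in WT but was still called in Cho Rep2 and Del. With equal numbers of strongest peaks from each list, it was called in Cho Rep2 but neither in WT nor in Del. The summits lay 222, 173 and 252 bp upstream of the start. The 250 bases before the start are shown next (RefSeq, GRCm38.p6, chr4:130944135-130944384, plus strand), with a match to the RUNX motif TGTGGT in capitals.

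Matn1 promoter: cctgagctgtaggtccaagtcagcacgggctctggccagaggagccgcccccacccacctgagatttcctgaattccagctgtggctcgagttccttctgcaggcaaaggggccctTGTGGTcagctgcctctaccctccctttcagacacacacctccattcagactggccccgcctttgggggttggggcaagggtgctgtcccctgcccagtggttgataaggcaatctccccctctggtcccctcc

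Matn2, a matrilin of fibrous and other connective tissues, is the longest gene of the group (chr15:34236436-34366029, NCBIM37, plus strand). Its promoter fold enrichment was 10.6 in Cho Rep1, 21.5 in Cho Rep2, 15.8 in WT and 14.3 in Del. The scaled pileups were 17.5, 66.9, 83.2 and 63.9. The summits lay 2 to 23 bp downstream of the start, the narrowest range of the 5 promoters with a peak. In WT and in Del, a further peak lay within 1 kb of the start.

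Matn4, a matrilin with a wide distribution, lies on the minus strand at chr2:164215129-164230660 (NCBIM37). Its promoter fold enrichment was 5.07, 17.8, 10.6 and 13.0 in Cho Rep1, Cho Rep2, WT and Del, and the scaled pileups were 8.04, 79.2, 55.5 and 57.5. The summits lay inside the gene, 247 to 311 bp downstream of its start in 4 of 4 libraries. RefSeq lists another start of Matn4 342 bp downstream, close to these summits. The WT summit also lay in an exon of Rbpjl, a gene of the opposite strand that overlaps Matn4, and ATAC-Seq peaks carry no strand.

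Hapln1 is the gene of the link protein (chr13:89680241-89751437, NCBIM37, plus strand). Its promoter fold enrichment was 11.0 in Cho Rep1, 10.9 in Cho Rep2, 8.12 in WT and 7.45 in Del. It was the gene with the highest promoter value in Cho Rep1 and next to last in the other libraries. Its scaled pileups were 18.3, 107, 61.0 and 49.5, and on this scale Hapln1 ranked above Matn4 in Cho Rep2 and WT. In Cho Rep1, a single interval of chr13:89678654-89680563 covered the region from which the WT list called 3 peaks, at 1.34 kb, 0.965 kb and 90 bp upstream of the start. RefSeq lists 2 starts of Hapln1 that are 107 bp apart, and the bases before the more upstream one are shown (GRCm38.p6, chr13:89540386-89540528, plus strand), with a RUNX match in capitals.

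Hapln1 promoter: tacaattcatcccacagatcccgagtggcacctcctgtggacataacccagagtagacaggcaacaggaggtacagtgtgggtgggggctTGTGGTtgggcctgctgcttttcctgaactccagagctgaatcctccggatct

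Comp (chr8:72897447-72905964, NCBIM37, plus strand) had no peak within 1 kb of its start in any of the 4 libraries, but peaks flanked the start at slightly longer range. A peak in an intron of Comp lay 1.14 to 1.20 kb downstream in 4 of 4 libraries, with fold enrichments of 4.65, 4.03, 5.13 and 4.98. On the upstream side, a peak was called 1.48 kb from the start in Cho Rep2, 1.49 kb in WT and 1.51 kb in Del, with fold enrichments of 12.3, 9.13 and 7.54. The peak of Cho Rep1 on this side had its summit 1165 bp from the start and a fold enrichment of 5.07. The scaled pileup of the upstream peak was 122 in WT, which was higher than at any of the 5 promoters that were called in that library. With a window of 2 kb, a peak was assigned to Comp in 4 of 4 libraries. The 200 bases around the WT summit are shown because this was the distal peak of highest pileup at Comp, a choice made after the values were seen (NCBIM37, chr8:72895857-72896056, plus strand). They held none of the searched motifs.

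Comp upstream site: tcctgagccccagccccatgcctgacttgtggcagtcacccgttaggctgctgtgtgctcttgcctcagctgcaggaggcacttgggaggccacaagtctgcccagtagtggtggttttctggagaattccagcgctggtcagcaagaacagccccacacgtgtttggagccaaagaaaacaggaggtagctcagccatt

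Cho was the only group with replicates, and the values of its 2 lists differed widely. The lists also differed in local background at the promoters below, 1.37 in Cho Rep1 against 5.15 to 18.3 in Cho Rep2. Their smallest peak widths were 200 and 94 bp. Spread between replicates and differences between the peak lists cannot be told apart in the SDs. The mean promoter fold enrichment was 16.0 ± 7.72 at Matn2, 14.0 ± 8.39 at Matn3, 11.5 ± 9.03 at Matn4 and 10.9 ± 0.0651 at Hapln1 (SD, n = 2). The means of these 4 genes lay closer together than the SD at Matn2, Matn3 and Matn4. Within each list, however, fold enrichment fell from Matn2 to Matn3 to Matn4. Hapln1 stood above these genes in Cho Rep1 and below them in Cho Rep2. In scaled pileup, Matn2 stood above Matn3 and Matn4 in Cho Rep1 and below both in Cho Rep2, so this order depended on the scale. The SD of Hapln1 was narrow on this scale only, since its scaled pileup was 62.5 ± 62.6 (SD, n = 2).

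The genes whose promoters were most like each member were taken by the distance of log2 fold enrichment over the 4 libraries, among 10674 genes with a promoter peak in all of them. Rbsn and Gorasp1 were nearest to Matn2 at a distance of 0.07 and 0.10. Dnase2a and Asap2 were nearest to Matn3 at 0.15 and 0.16, and Rsph4a and Coro2a to Matn4 at 0.07 and 0.11. Tbl1x was nearest to Hapln1 at 0.19. None of the genes named here is on the list of cartilage matrix genes used below. Only 4 of the 15 genes on that list had a promoter peak in Cho Rep1, so most of them could not be named. Their absence thus says nothing on likeness to cartilage matrix genes.

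Relatives of the 6 genes were examined in the same way. Among the other link proteins, Hapln2, Hapln3 and Hapln4, no promoter peak was called in Cho Rep1 or WT, and 2 of 3 had one in Cho Rep2 and in Del. The deletion values were 7.88 at Hapln3 and 7.51 at Hapln4, so these promoters were called in the lists with the most peaks only. The thrombospondins other than Comp had a promoter peak at 3, 3, 3 and 4 of 4 genes in Cho Rep1, Cho Rep2, WT and Del. Thbs2 had the highest fold enrichments of them, 22.0, 21.1, 14.8 and 13.6, but in scaled pileup it lay below Thbs1 and Thbs3 in Cho Rep2 and Del.

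The promoter peaks of other cartilage matrix genes were mostly low in fold enrichment. Among 15 such genes, which include collagens II, IX and XI and aggrecan, 4, 13, 11 and 12 had a promoter peak in Cho Rep1, Cho Rep2, WT and Del. The median fold enrichment of those called was 6.33, 6.09, 6.10 and 6.43. Over all called promoters the median was 12.2, 17.7, 12.7 and 12.4, and over the called members it was 9.29, 17.8, 10.6 and 13.0. Col2a1, the gene of collagen II, had 5.56 in WT, and Acan, the gene of aggrecan, had 5.76. In scaled pileup they were far apart, at 91.5 and 30.5, against a median of 80.4 over all promoters called in WT, so the place of Col2a1 depended on the scale.

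The surroundings of the genes were examined next. The number of peaks per locus in Cho Rep1, Cho Rep2, WT and Del was 1, 14, 6 and 9 at Matn1, and 17, 29, 19 and 33 at Matn2. It was 10, 25, 14 and 22 at Matn3, and 7, 31, 16 and 28 at Matn4. At Hapln1 there were 7, 28, 7 and 14 peaks, and at Comp 10, 27, 17 and 24. Every locus had its lowest count in Cho Rep1, the list with the fewest peaks, tied with WT at Hapln1.

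**Figure D2:**
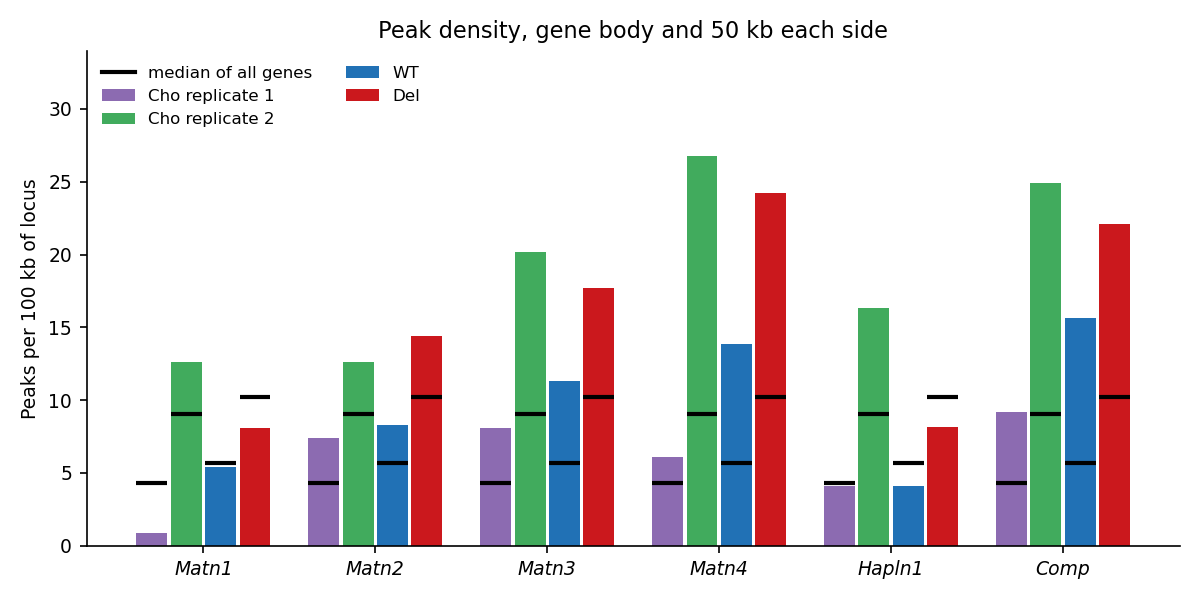
Peaks per 100 kb of each locus in the 4 libraries, with the median over all protein-coding genes of the same library as a black line on each bar. Matn2, Matn3, Matn4 and Comp lay above the median in 4 of 4 libraries, and Matn1 and Hapln1 did so in Cho Rep2 only.

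Per length, Comp and Matn4 lay in the densest surroundings in Cho Rep2, WT and Del, whereas in Cho Rep1 Matn4, with 6.06 peaks per 100 kb, lay below Comp, Matn3 and Matn2. In WT there were 15.7 peaks per 100 kb at Comp, 13.8 at Matn4, 11.3 at Matn3 and 8.28 at Matn2, against 5.40 at Matn1, 4.09 at Hapln1 and a median of 5.71 over all genes. The Comp density exceeded that of 95.4% of genes in WT and 95.1% in Del, and the Matn4 density that of 92.3% and 97.3%. The loci differed in neighbours too, since Comp had the starts of Gdf1 and Upf1 within its window, Matn4 had those of Slpi, Rbpjl and Sdc4, and Hapln1 had none.

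**Figure D3:**
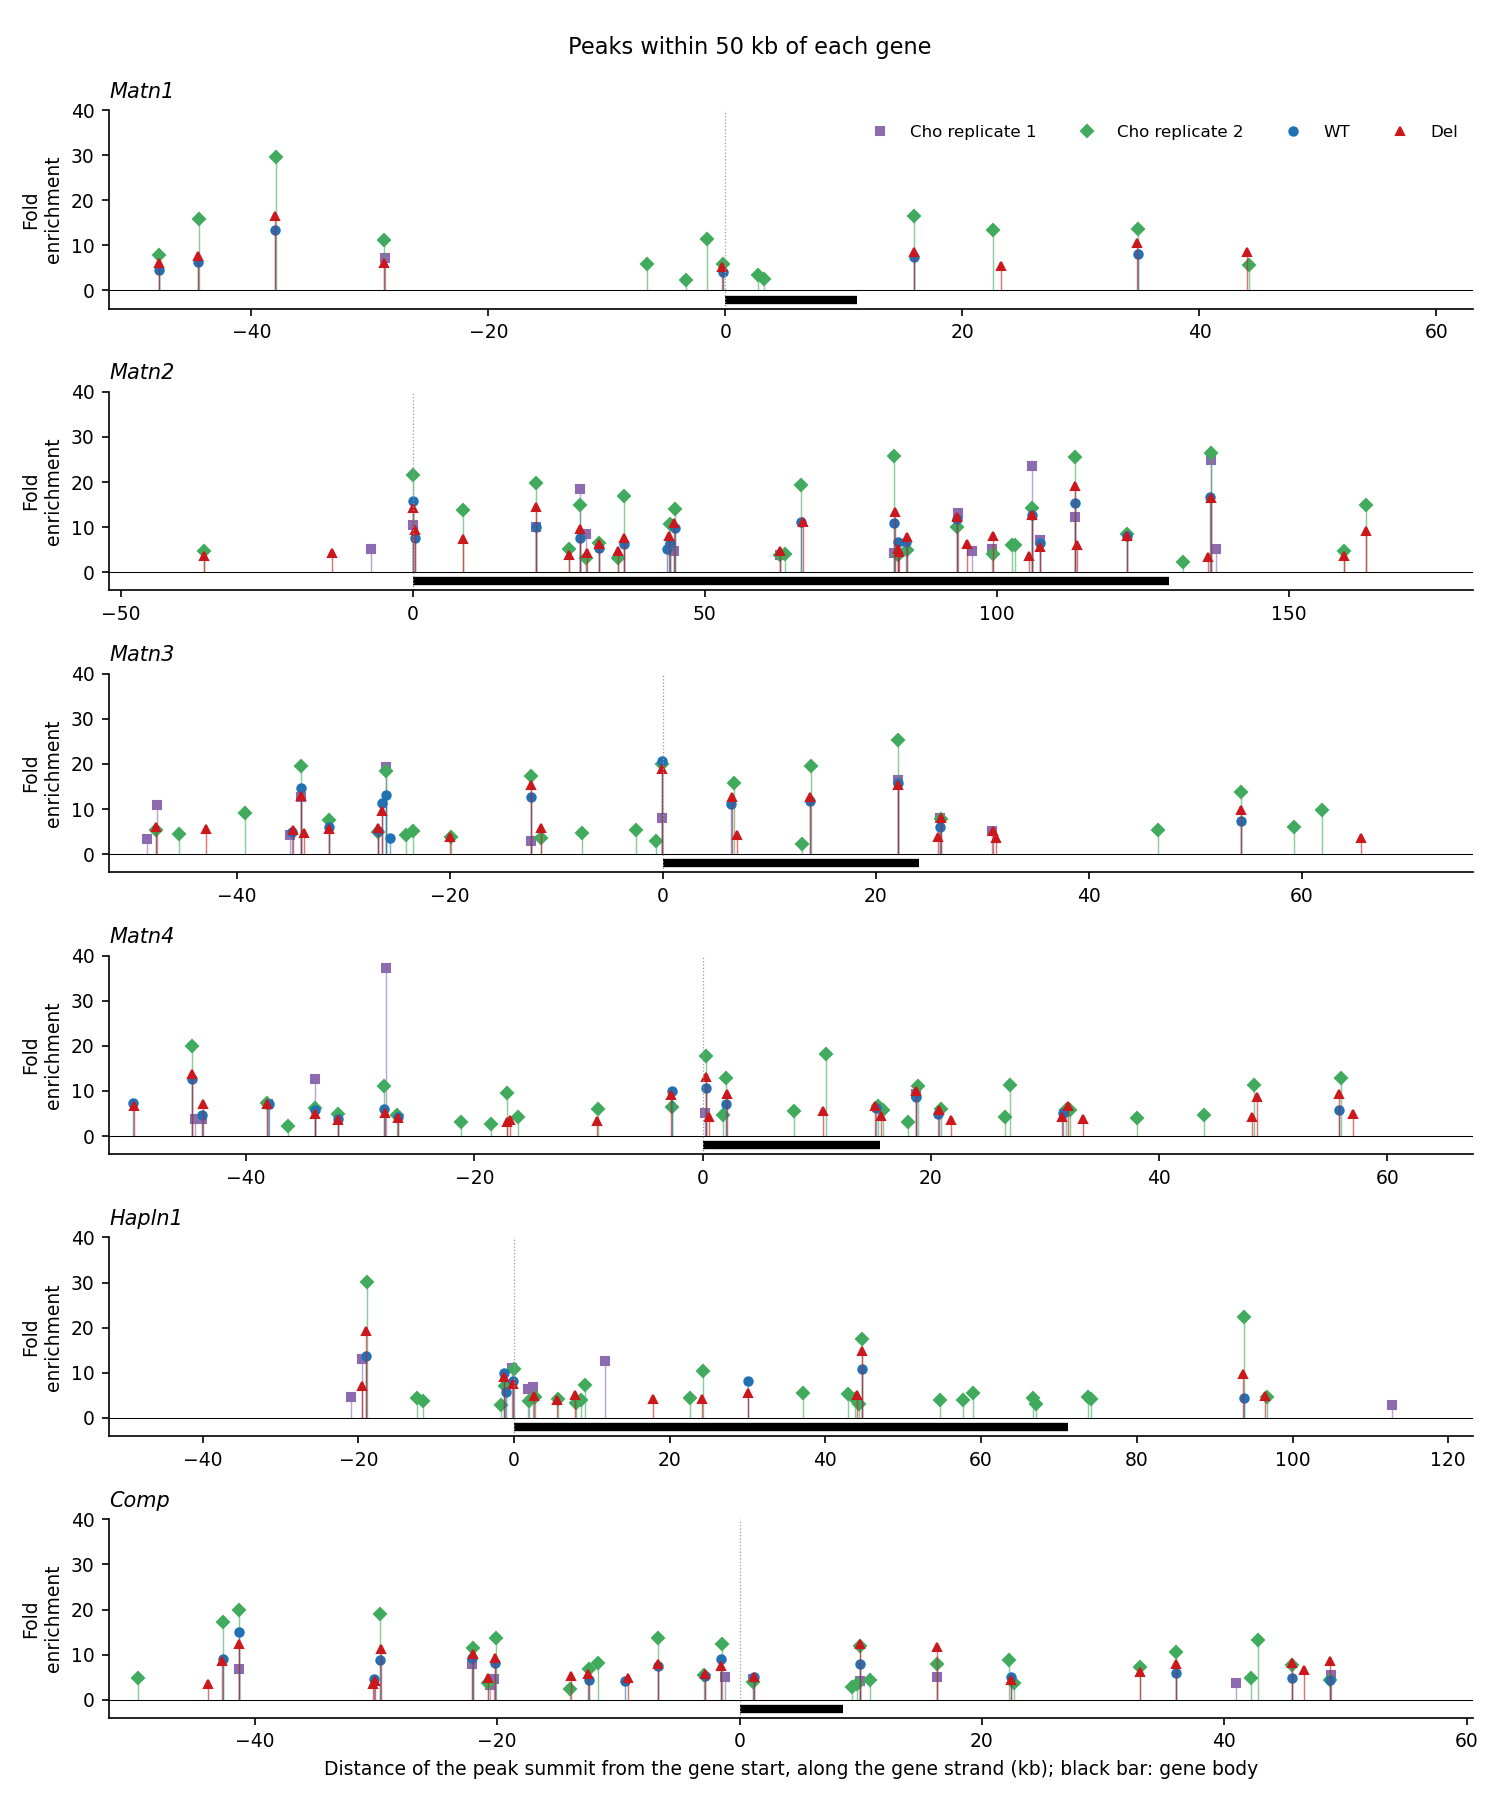
Every peak of the 6 loci by the distance of its summit from the gene start along the gene's strand, in kb, and by its fold enrichment, with 1 colour and symbol per library and the gene body as a black bar. The WT and deletion symbols stand at the same positions at almost every WT peak, and at Matn2 most of the WT peaks lie over the gene body.

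Of the 79 WT peaks, 42 had their summit in an intron, 26 were intergenic, 8 were in a UTR, 1 was in a coding exon and 2 were in other exons. By class, 7 lay at the promoter of a member, 10 at the promoter of another gene and 62 were distal, more than 1 kb from every protein-coding gene start. At Matn2, 17 of the 19 WT peaks lay in introns, while at Matn1 6 of 6 were intergenic.

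At each locus, the distal peak of highest WT fold enrichment was picked out of 5 to 16 distal WT peaks. A high value thus followed in part from the choice. The picked peaks exceeded from 86.1% (Matn4) to 94.2% (Matn3) of all WT peaks in fold enrichment. The picked peak is given gene by gene. At Matn3 it lay in an intron of the gene, 22.1 kb downstream of the start (chr12:8976618-8976971), with fold enrichments of 16.5, 25.3, 15.8 and 15.4 in Cho Rep1, Cho Rep2, WT and Del. It was the strongest distal peak of the locus in 4 of 4 libraries, with summits 22.1 kb from the start in each. At Hapln1 it was intergenic, 19.0 kb upstream (chr13:89660992-89661386), with 13.1, 30.1, 13.7 and 19.3. This was the highest value of the Hapln1 locus in Cho Rep2, WT and Del, the promoter included. The wider Cho Rep1 interval that overlapped the site was also the highest of the locus, but its summit lay 19.6 kb upstream. That summit lay within a separate Del peak, 19.5 kb upstream, which is named further on.

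At Matn2 the strongest distal peak of WT lay in an intron 113 kb downstream of the start (chr15:34349658-34349930), with 12.2, 25.5, 15.4 and 19.1. Another intronic site, 106 kb downstream, had 23.6 in Cho Rep1 and 12.8 in WT, but scaled pileups of 40.2 and 80.4. A site 82.5 kb downstream had a fold enrichment of 25.8 in Cho Rep2, so the order of the intronic sites was not the same in every library. At Matn1 it was intergenic, 38.0 kb upstream (chr4:130462137-130462718) and 6.73 kb from the start of Laptm5, which was the nearest gene start. Its fold enrichment was 29.6 in Cho Rep2, 13.4 in WT and 16.5 in Del, and it was not called in Cho Rep1. In WT its scaled pileup of 72.1 stood well above the 13.9 of the Matn1 promoter.

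At Matn4 the site was intergenic, 44.7 kb upstream (chr2:164275045-164275529), with 3.80, 20.0, 12.6 and 13.8, and the nearest gene start was that of Sdc4, a syndecan. Another site near Sdc4, in its intron and 27.9 kb upstream of Matn4 in WT, had 37.2 in Cho Rep1 and 5.98 in WT. In scaled pileup the order was the opposite, with 63.6 in Cho Rep1 and 130 in WT at this site. It had the highest pileup of the distal Matn4 sites in WT. At Comp the site lay 41.3 kb upstream in a UTR of Upf1, a gene of RNA decay (chr8:72856071-72856223), with 6.76, 19.8, 14.9 and 12.3. A site 22.1 kb upstream of Comp was stronger in Cho Rep1, with 8.02, and one 9.95 kb downstream was level with the Upf1 site in Del, at 12.3. The nearest gene start was that of the member itself only at Hapln1. It was Rpl30 for the Matn2 site, Wdr35 for the Matn3 site and Gdf1 for the Comp site, and which gene a distal site serves was not measured.

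The 200 bases centred on the WT summits of these sites are shown for the 5 genes where the site is not in a UTR, since these were the strongest open sites away from promoters. The sequences are from NCBIM37, plus strand: Matn1 chr4:130462206-130462405, Matn2 chr15:34349689-34349888, Matn3 chr12:8976722-8976921, Matn4 chr2:164275264-164275463 and Hapln1 chr13:89661098-89661297. Capitals mark a SOX match at Matn1, an AP-1 match at Matn2, a RUNX match at Matn3, and a RUNX match and then a SOX match at Matn4, both read from the other strand. The Hapln1 site held none.

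Matn1 distal site: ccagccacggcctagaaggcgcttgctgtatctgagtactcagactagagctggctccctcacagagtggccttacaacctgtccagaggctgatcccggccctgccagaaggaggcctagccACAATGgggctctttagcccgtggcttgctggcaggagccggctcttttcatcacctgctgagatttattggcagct

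Matn2 distal site: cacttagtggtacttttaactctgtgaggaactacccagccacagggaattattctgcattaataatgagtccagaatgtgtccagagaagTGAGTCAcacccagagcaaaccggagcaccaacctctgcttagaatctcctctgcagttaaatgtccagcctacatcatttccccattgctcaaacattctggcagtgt

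Matn3 distal site: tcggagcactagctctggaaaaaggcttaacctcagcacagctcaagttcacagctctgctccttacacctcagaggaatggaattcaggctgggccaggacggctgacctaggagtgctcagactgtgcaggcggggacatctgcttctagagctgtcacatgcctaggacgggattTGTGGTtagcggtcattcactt

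Matn4 distal site: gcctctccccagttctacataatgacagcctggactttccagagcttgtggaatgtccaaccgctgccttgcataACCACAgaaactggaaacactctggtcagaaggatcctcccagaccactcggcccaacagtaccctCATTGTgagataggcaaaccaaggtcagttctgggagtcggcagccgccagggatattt

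Hapln1 distal site: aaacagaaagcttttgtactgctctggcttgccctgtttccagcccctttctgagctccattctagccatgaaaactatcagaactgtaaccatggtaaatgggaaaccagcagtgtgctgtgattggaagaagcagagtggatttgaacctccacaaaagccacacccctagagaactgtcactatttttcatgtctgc

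Motifs were counted in such windows around all 79 WT summits. A SOX match was ACAATG or ACAAAG, an AP-1 match TGANTCA and a RUNX match TGTGGT, each on either strand. SOX matches were in 12 windows (15.2%), against 17.6% of all WT peaks. AP-1 matches were in 14 (17.7%, against 19.4%) and RUNX matches in 15 (19.0%, against 19.8%). None of the 79 windows held a pair of SOX matches in opposite orientation at most 10 bp apart, which 0.164% of all WT peaks held. The shares of the members' sites were thus close to those of WT peaks in general.

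The matches were not spread evenly over the genes. Matn2 had an AP-1 match in 7 of its 19 windows, Hapln1 had no SOX or AP-1 match in its 7, and 4 of the 14 Matn3 windows held a SOX match. These counts are small and a match is not a bound site. In the promoter table, which covered Matn1, Matn3, Matn4 and Hapln1 of the 6 genes, no TATAAA lay in the 60 bp before a start, against 2.87% of all 32851 promoters.

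Most WT sites of the 6 loci recurred in other libraries. Of the 79 WT peaks, 77 (97.5%, exact binomial 95% interval 91.2 to 99.7%) overlapped a peak of Del, against 96.8% in the loci of all genes. A peak of Cho Rep1 overlapped 42 (53.2%, 41.6 to 64.5%), against 62.5%. Cho Rep2 was in another genome build, and 60 WT peaks (75.9%, 65.0 to 84.9%) had a peak there within 150 bp of the same distance from the gene start. The share over all genes was 54.4%, and 75.4% over genes whose annotated lengths agree between the builds within 150 bp. Matn4 is not such a gene, since its lengths differ by 236 bp, so sites past this difference could not be matched there. Without Matn4, 51 of 63 WT peaks (81.0%) were matched. The intervals cover counting error only.

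In total, 33 WT sites were found in 4 libraries, 36 in 3, 8 in 2 and 2 in WT alone, and without Matn4 27 of 63 were found in 4. The shares over the loci of all genes were not computed for these counts, which only describe the members. Matn2 had 10 sites in 4 libraries and Matn3 and Comp 7 each. Matn1 had none, because 0 of its 6 WT sites were in Cho Rep1, although 6 of 6 were in Cho Rep2 and in Del.

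The Cho lists also held peaks of their own. In Cho Rep1, 18 of 52 peaks overlapped no WT peak (34.6%, against 32.4% in the loci of all genes). In Cho Rep2, 94 of 154 peaks had no WT summit within 150 bp of the same distance. Of these, 22 were at Matn4, where distances differ between the builds. Over the 5 genes of like length in both builds, the count was 72 of 123 (58.5%, against 48.9% over all such genes), and this list was the deepest of the 4. At Hapln1 the counts were 23 of 28 in Cho Rep2 and 5 of 7 in Cho Rep1, among them a peak 11.7 kb downstream of the start with a fold enrichment of 12.7 in Cho Rep1. At Matn1, a peak of Cho Rep2 lay 1.55 kb upstream of the start with a fold enrichment of 11.4, above that of its promoter peak.

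WT and Del were compared at the 77 shared sites to see whether open chromatin at these genes differed between a library with and a library without E160 and E308. The scaled pileups were much alike. The median log2 ratio of deletion to WT was -0.04 over the 77 sites and -0.01 over all 87274 shared peaks of the genome. The ratio was above 1 at 31 sites and below 1 at 46, against 42719 and 44555 of all shared peaks. The pileups behind it were small, with a median of 16 fragments in WT and a range of 5 to 49, so the 95% counting interval of a site spanned at least 2.18-fold from end to end.

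**Figure D4:**
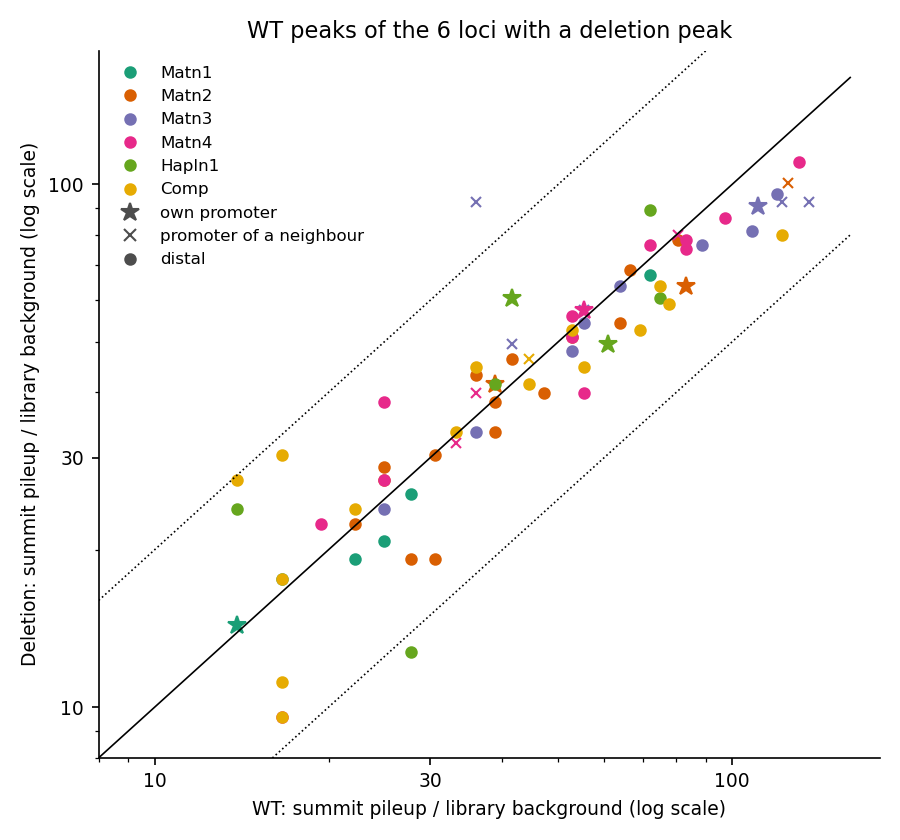
Scaled summit pileup of the 77 WT peaks of the 6 loci with an overlapping deletion peak, WT on the x axis and Del on the y axis, both on log scales, with the line of equality and dotted lines at 2-fold. All but 2 sites lie between the dotted lines, and the site above them is at the Laptm4a promoter in the Matn3 locus.

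At the promoters, the ratio of deletion to WT was 1.04 at Matn1 (95% counting interval 0.312 to 3.94) and 0.768 at Matn2 (0.466 to 1.28). It was 0.820 at Matn3 (0.538 to 1.26), 1.04 at Matn4 (0.584 to 1.89) and 0.811 at Hapln1 (0.455 to 1.47). Each interval held 1, which leaves differences of up to about these bounds unresolved. At the upstream peak of Comp, the ratio was 0.654, with an interval from 0.428 to just above 1. At the strongest distal sites it was 0.803 at Matn3, 1.24 at Hapln1, 1.03 at Matn2, 0.930 at Matn1, 1.06 at Matn4 and 0.761 at Comp, again with intervals that held 1.

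A ratio past 2-fold was found at 2 sites. The ratio was 2.57 (1.39 to 5.11) at a site 25.6 kb upstream of Matn3, which belongs to the promoter region of Laptm4a, and this was the only one of the 77 intervals without 1. There, 1 interval of Del covered 3 WT peaks, and its summit was set against each of them, while at the strongest of the 3 the ratio was 0.681 (0.458 to 1.02). When summits also had to lie within 150 bp of each other, no site was past 2-fold higher. The ratio was 0.461 (0.158 to 1.30) at a site in a Hapln1 intron, 30.0 kb downstream of the start, with 10 fragments in WT. So 1 of 77 sites was past 2-fold higher and 1 past 2-fold lower, against 3.59% and 1.42% of all shared peaks.

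Over the 60 distal sites the median was -0.07, against 0.03 over all shared distal peaks, and at the promoter peaks of the 5 members that had one it was -0.29, against -0.17 over all shared promoter peaks. With the further peaks within 1 kb of the Matn2 and Hapln1 starts, 7 in all, it was 0.05, so its direction rested on these peaks. The Hapln1 peak among them was set against a Del interval whose summit lay 1.32 kb upstream of the start. By gene, the median log2 ratio was -0.11 at Matn1 (6 sites), -0.03 at Matn2 (18), -0.12 at Matn3 (14), -0.03 at Matn4 (16), 0.10 at Hapln1 (7) and -0.05 at Comp (16). The choice of scale moved these values together with the whole genome. With fold enrichment in place of scaled pileup, the ratio was above 1 at 48 of the 77 sites, and the median was 0.15 for them and 0.28 for all shared peaks. With pileup over tag depth, it was above 1 at 16 sites, and the medians were -0.16 and -0.13. The split of all shared peaks was not computed on either of these scales.

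Few WT peaks were absent from Del. They numbered 2 of 79 (2.53%, against 4.06% of all WT peaks), in a Matn2 intron 43.6 kb downstream of the start and 9.44 kb upstream of Comp. Each rested on 7 fragments, with fold enrichments of 5.17 and 4.18, and neither was found in Cho. In the other direction, 56 of the 130 deletion peaks overlapped no WT peak (43.1%, against 50.6% of all deletion peaks). Their median pileup was 10 fragments and the highest 21, and 32 of the 56 were matched in a Cho replicate. Without Matn4, where matching in Cho Rep2 was limited, these counts were 29 of 44. The share matched in Cho over all deletion peaks without a WT peak was not computed, so these counts only describe the members.

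The strongest deletion peaks without a WT peak are named for each gene. At Comp it lay 16.3 kb downstream in an intron of Crtc1, with a fold enrichment of 11.7 on 20 fragments, and it was present in both Cho replicates. At Matn2 it lay 163 kb downstream with 9.22, and at Matn1 44.0 kb downstream with 8.61, each also found in Cho Rep2. At Matn4 it lay 48.6 kb downstream with 8.61. It was not in Cho Rep1, and its place in Cho Rep2 could not be set to within the difference in gene length. At Hapln1 it lay 19.5 kb upstream, beside the strongest distal site, with 7.05, and overlapped the same Cho Rep1 interval as that site. At Matn3 it lay 47.6 kb upstream with 6.12 and was found in both.

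The depth of the lists bears on these counts. When equal numbers of strongest peaks were taken from each list, 6 of 69 WT peaks (8.70%) and 10 of 71 deletion peaks (14.1%) had no counterpart in the other list, against 17.2% and 20.3% of all peaks taken in this way. The excess of deletion peaks at these 6 genes thus shrank from 56 against 2 to 10 against 6.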

How the data were processed

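ATAC-Seq peak lists of 4 libraries of mouse primary chondrocytes were used. According to the submitters' processing notes, the authors used fastp, Bowtie2 2.4.4, Picard 2.20.7, SAMtools 1.9 and MACS2 2.2.4, and peaks were deposited per library. The deposited columns hold a score, a fold enrichment ratio at the summit, and −log10 p and q values. No read counts were used. The stated build was mm9 (NCBIM37), but the positions of Cho Rep2 were those of mm10 (GRCm38), so this list was set beside the others by distance from the gene start only.

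The summit pileup was solved from fold enrichment and −log10 p. Entries of 1 interval were reduced to that of highest fold enrichment. Genes came from GENCODE for NCBIM37 and RefSeq for GRCm38. Lists overlapped by at least 1 bp or, across builds, within 150 bp. Ratios of WT and deletion pileups have exact conditional binomial intervals (95%, SciPy 1.17.1), which cover counting error only. Scripts ran in Python 3.11.15 and were tested on simulated data. Named were the 6 members, the strongest sites per locus and the 2 most like promoters, of which 1 is not reported here. The members, lists and tests were chosen with earlier results of these data known.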

Additional observations from a re-analysis of the deposited data

How the results depend on the processing

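Of 206 values recomputed under an alternative, 31 were marked as moved, among them the median ratio of Del to WT, which changed sign. Promoter values given in scaled pileup in place of fold enrichment were marked as moved by rule. Values with 1 Cho replicate left out could not be marked, since the limit was the SD of the 2 replicates. The count is therefore a description and not the outcome of a test. In scaled pileup in place of fold enrichment, the median over called member promoters was 15.3 in Cho Rep1, 79.2 in Cho Rep2, 61.0 in WT and 57.5 in Del. Over all called promoters it was 20.5, 67.5, 80.4 and 65.5 in the same order. The Cho mean in scaled pileup was 42.2 at Matn2, 68.7 at Matn3, 43.6 at Matn4 and 62.5 at Hapln1. With 1 Cho replicate left out, the Cho fold enrichment ranged from 10.6 to 21.5 at Matn2, 8.02 to 19.9 at Matn3, 5.07 to 17.8 at Matn4 and 10.9 to 11.0 at Hapln1. With a flank of 100 kb, the loci held 86 peaks in Cho Rep1, 126 in WT and 212 in Del, and with 25 kb 52 in WT. With equal numbers of strongest peaks, they held 85 in Cho Rep2 and 71 in Del. Of WT peaks with a q-value under 1e-05, 100% were found in Del, and 86.1% of WT peaks were found in Cho Rep2 within 300 bp. The shares over all genes were not computed under these 2 settings. Over the 5 genes of like length in both builds, the share found in Cho Rep2 within 150 bp was 81.0%, against 75.4% over all such genes. This alternative was also chosen after seeing the data.

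The median log2 ratio of deletion to WT, -0.04 in scaled pileup, was -0.16 over tag depth and 0.15 in fold enrichment, and it was 1.91 with Cho Rep1 as the reference. Promoters in general differed between these lists too, with a median scaled pileup over all called promoters of 20.5 in Cho Rep1 and 65.5 in Del. The median and the shares past 2-fold over all shared peaks were not computed against Cho Rep1. Sites past 2-fold higher numbered 2 in fold enrichment, 35 against Cho Rep1, 0 with a flank of 25 kb and 0 when summits had to lie within 150 bp, an alternative chosen after seeing the data. Sites past 2-fold lower numbered 0 in fold enrichment and 0 against Cho Rep1. With equal numbers of peaks, 6 were in WT alone and 10 in Del alone, and at a q-value under 1e-05 these were 0 and 25. The cause of these shifts was not tested. No paired analysis was possible because each genotype was measured in 1 library and only Cho had replicate numbers.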

Other observations

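Some peaks of the 6 loci lay at neighbouring genes. Genes of the Laptm family, which encode lysosomal membrane proteins, lay 8.24 kb from Matn1 (Laptm5), 22.4 kb from Matn2 (Laptm4b) and 9.19 kb from Matn3 (Laptm4a), and Sdc4, a syndecan, lay 19.1 kb from Matn4. Flanks of 50 kb took in all or part of these neighbours, and 4 WT peaks of the Matn3 locus lay at the Laptm4a promoter.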
